A study of Mus musculus with 6 samples.

Results

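The 10 genes described here act in or beside the step that commits a cell to a new round of DNA replication. They are the D cyclins *Ccnd1*, *Ccnd2* and *Ccnd3*, the E cyclins *Ccne1* and *Ccne2*, the kinases *Cdk4* and *Cdk6*, the retinoblastoma gene *Rb1*, the membrane cyclin *Ccny* and the inhibitor *Cdkn1b*. They were chosen by name from 55414 genes listed, and 10 of the 10 were among the 16353 genes that passed a filter on low counts. Messenger RNA was sequenced from mouse cells at E10.5 (embryonic day), in 3 libraries of *mir-302* wild-type (WT) and 3 libraries of *mir-302* knockout (KO) embryos. Embryos of both genotypes carried the *Pdx1-Cre* transgene and a Cre-dependent tdTomato allele at *Rosa26*, and tdTomato-positive cells were sorted from the dissociated trunk. *Pdx1-Cre* served only to mark the cells, since the *mir-302* deletion was carried in the germline and was therefore present in every cell of a KO embryo. Cells that had expressed *Pdx1* earlier, such as duodenal or endocrine cells, also stay labelled.

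All 10 progenitor markers examined were above 0 in each library, with a summed level of 783 to 904 CPM (counts scaled to library size by TMM factors) in WT and 896 to 1040.2 CPM in KO. *Ptf1a*, a defining factor of pancreatic progenitors, was low at 1.52 to 4.96 CPM. Endocrine markers summed to 1097 to 5102 CPM in WT and 1961 to 5655 CPM in KO. Most of that sum was *Gcg* alone, at 900 to 4578 CPM in WT and 1714 to 5047 CPM in KO. *Neurog3* had 13.4 to 39.7 CPM and *Ins1* 0.163 to 8.32 CPM over the 6 libraries. Markers of other cells varied between libraries of a genotype. Red blood cell markers summed to 15940 CPM in WT replicate 3 and to 6379 CPM in KO replicate 1, against 0.798 to 336 CPM in the other 4 libraries. Mesenchyme markers summed to 117 CPM in KO replicate 2, with *Col1a1* and *Col3a1* at 0, and to 263 to 1181 CPM elsewhere. Liver markers summed to 574 to 1594 CPM in WT and 474 to 1649 CPM in KO. Their sum was also lowest in KO replicate 2, where *Afp* was at 102 CPM but *Ttr* was highest, at 323 CPM. Total counts were between 17352498 and 26634523. The deleted cluster could not be used to check the genotype labels, because its genes had 0 counts in every library except for 2 counts of *Mir302d* in KO replicate 3, below the 3 counts that a count of 0 allows. Nothing in the labels says whether the libraries of a genotype came from separate embryos, so p-values measure only the spread between these libraries.

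In the G1 phase, D cyclins bind and activate the kinases Cdk4 and Cdk6, which phosphorylate the retinoblastoma protein. Rb holds E2F transcription factors inactive until it is phosphorylated, and the freed factors switch on genes of DNA synthesis together with *Ccne1* and *Ccne2*, whose products activate Cdk2. Cdkn1b, also called p27, inhibits cyclin-Cdk2 complexes and helps to assemble those of the D cyclins. Ccny is a membrane-bound cyclin that works with Cdk14 and Cdk16 and takes part in phosphorylating the Wnt co-receptor Lrp6. Embryonic progenitors divide fast, and miR-302 is known in pluripotent cells as a family that promotes the passage from G1 to S phase.

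Mature miR-302 sequences from the deleted cluster are shown because the seed, bases 2 to 8 from the 5′ end, defines the sites searched for in the 10 transcripts. The sequences are those of RefSeq on chromosome 3 of GRCm38.p6, plus strand, with the seed in capitals. They lie at chr3:127545275-127545297, chr3:127545406-127545427 and chr3:127545665-127545687 in the order shown. miR-302a-3p is the other miR-302 of this cluster. The cluster also holds *Mir367*, whose seed is different and was not searched for.
mmu-miR-302b-3p: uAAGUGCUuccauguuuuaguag
mmu-miR-302c-3p: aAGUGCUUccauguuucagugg
mmu-miR-302d-3p: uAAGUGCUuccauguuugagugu
miR-302b-3p and miR-302d-3p have the same seed, and the annotated start of miR-302c-3p lies 1 base further along the same run. A full match to the seed of miR-302b-3p and miR-302d-3p reads AGCACTT in the transcript (7mer-m8), and an A after it makes an 8mer. Matches of this kind were searched for on the transcript strand, together with GCACTTA (7mer-A1), which none of the 10 genes had without the full match.

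The 3′UTRs of *Ccnd1*, *Ccnd2*, *Cdk4*, *Cdk6* and *Ccny* together held 8 matches, and those of *Ccnd3*, *Ccne1*, *Ccne2*, *Rb1* and *Cdkn1b* held none. The sites of *Ccnd1*, *Ccnd2*, *Cdk4* and *Cdk6* are shown with flanking bases, and the capitals mark the bases that match. Positions are counted from the first base of the 3′UTR in the annotated transcript (GENCODE M21).
Ccnd1, position 924 of 2676, 7mer-m8: ccattccatttcaaAGCACTTttggtca
Ccnd2, position 988 of 5173, 7mer-m8: cattccattagaaaAGCACTTtgaaaat
Cdk4, position 541 of 899, 7mer-m8: agaaatgcttgccgAGCACTTgtgaggc
Cdk4, position 824 of 899, 7mer-m8: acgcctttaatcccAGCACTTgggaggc
Cdk6, position 1061 of 10217, 7mer-m8: agctctcaaccaccAGCACTTctaattc
Cdk6, position 4540 of 10217, 8mer: catcccgcacattcAGCACTTAtggacta
Cdk6, position 7642 of 10217, 8mer: agcataatagaaagAGCACTTAgcagatg
*Ccny* had a 7mer-m8 at position 240 of a 3′UTR of 4252 bases. A match was present in 5 of the 10 genes, and in 20.6% of the 13768 tested genes with a 3′UTR. The 3′UTRs of the 10 genes had a median of 2192.5 bases, against 1184 bases over those genes, and a longer 3′UTR has more room for a match. *Cdk6*, with the longest 3′UTR of the 10, was the only one with an 8mer, and 3 or more sites were found in 1.15% of the tested genes. The second *Cdk4* site lies in a repeated stretch, since the central 24 bases shown for it occur in the 3′UTRs of 129 of 21045 genes. The central bases of each other site shown occur in 1 gene.

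Between the genotypes, *Ccny* was the only one of the 10 genes whose KO libraries all lay apart from its WT libraries. Its mean level was 2.15 times higher in KO. *Ccnd1* was lower in KO at 0.672 of its WT level, with 1 KO library inside the WT range. *Cdk4*, the most abundant of the genes, differed by a few percent, and its libraries and those of the other 7 genes overlapped between genotypes. None of the 10 genes passed edgeR's quasi-likelihood test at a Benjamini-Hochberg adjusted p under 0.05, as was the case for the 16353 genes tested (0%). At an unadjusted p under 0.05, *Ccny* was among the 6.42% of genes that were higher and *Ccnd1* among the 3.97% that were lower, 1700 genes or 10.4% in all. DESeq2, the tool of the study, called 699 of 14353 genes (4.87%), 606 higher in KO (4.22%) and 93 lower (0.648%), and of the 10 genes it called *Ccny*. A complete separation of the genotypes was seen in 16.4% of the tested genes, with KO above in 8.36% and below in 7.99%, and in 1 of the 10. The 10 genes had a median log2 fold change of 0.04 (KO over WT), with 5 above and 5 below 0, and the median over all genes was -0.02. Because the RNA came from pools of sorted cells, fewer cells of a type and less RNA per cell cannot be told apart in any of these values.

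**Figure D1:**
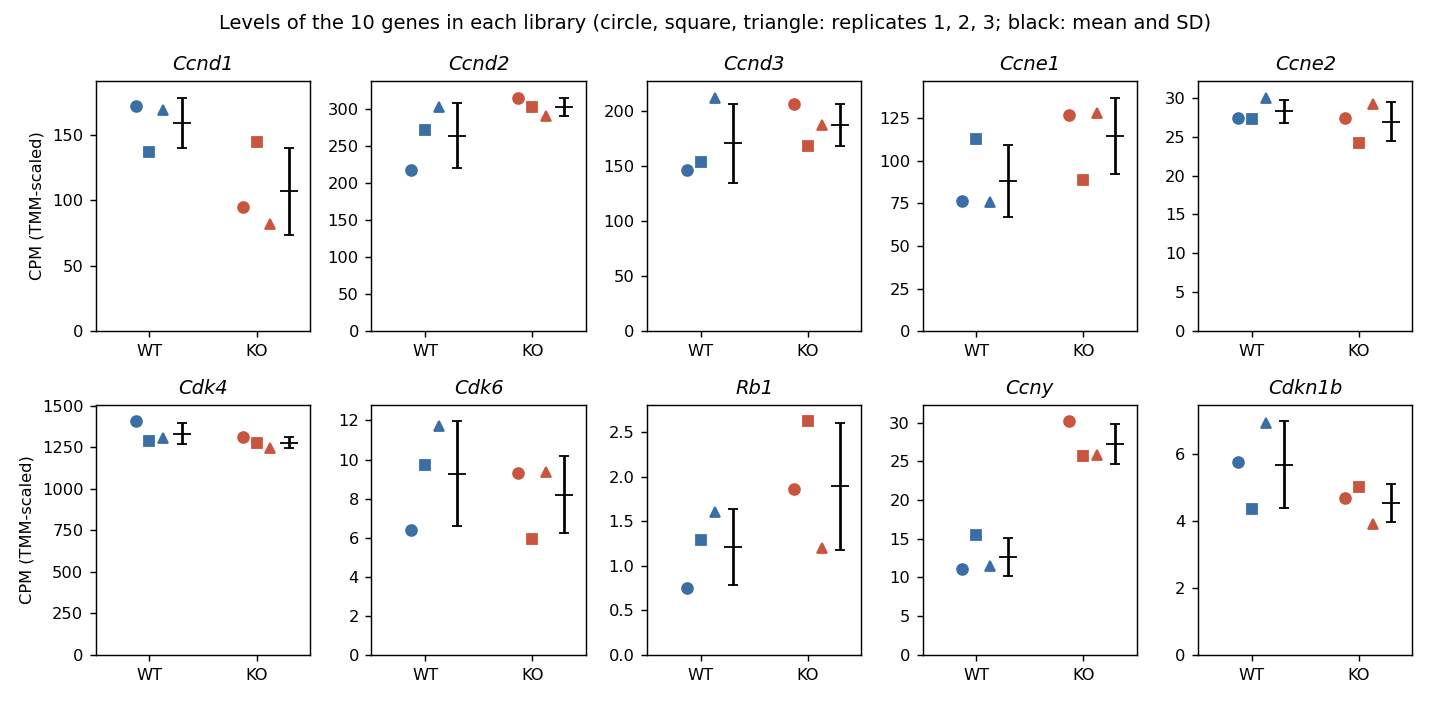
Level of each of the 10 genes in each library, in CPM scaled by TMM factors, on linear axes that start at 0; circles, squares and triangles are replicates 1, 2 and 3 of WT (blue) and KO (red), and black bars give the mean ± SD of 3 libraries. The genotypes are separate for *Ccny* (11.1 to 15.5 CPM in WT, 25.7 to 30.2 CPM in KO) and overlap for the other 9 genes.

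Among the D cyclins, which link growth signals to the G1 kinases, *Ccnd1* showed the largest difference. In WT replicates 1, 2 and 3, *Ccnd1* levels were 172, 137 and 169 CPM, and KO replicates 1, 2 and 3 had 94.8, 145 and 81.7 CPM. KO replicates 1 and 3 were below every WT library, while KO replicate 2 lay within the WT range. The mean level was 159 ± 19.2 CPM for WT and 107 ± 33.2 CPM for KO (± SD, 3 libraries). On the log2 scale the difference was -0.57 ± 0.21 (SE, edgeR), and the 95% interval of the fold ran from 0.477 to 0.947. The unadjusted edgeR p was 0.0288 and the adjusted p 0.380, and an exact permutation test of the 6 levels gave p = 0.2 (two-sided, smallest possible 0.1 for 3 libraries against 3). DESeq2 gave -0.55 with an adjusted p of 0.126. Without KO replicate 2, the value was -0.83 in both fits, with an adjusted p of 0.183 by edgeR and 5.3e-05 by DESeq2. KO replicate 2 is also the library with the lowest sums of mesenchyme and of liver markers, and the part of this in the *Ccnd1* value was not tested. With WT replicate 3 and KO replicate 1 left out, the libraries rich in red blood cell markers, the edgeR value was -0.42.

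*Ccnd2* had the highest CPM of the D cyclins, with 218, 272 and 304 CPM in WT against 316, 303 and 291 CPM in KO. The KO libraries were close to each other and near the highest WT library. The means were 265 ± 43.4 and 303 ± 12.5 CPM (SD, n = 3 each), and the fold of 1.15 had a 95% interval from 0.934 to 1.41 (edgeR, adjusted p = 0.687). For *Ccnd3*, WT had 147, 154 and 212 CPM, and KO had 206, 169 and 187 CPM. Its KO libraries all lay within the WT range, and its fold of 1.10 had an interval from 0.854 to 1.41 (edgeR, adjusted p = 0.868). A pseudogene of *Ccnd3*, *Ccnd3-ps*, had at most 14 counts in a library.

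Set against *Ccnd2*, which has the same kind of site, *Ccnd1* made up less of the D cyclin RNA in KO. The ratio of *Ccnd1* to *Ccnd2* CPM, computed after the levels were seen, was 0.789, 0.503 and 0.556 in WT and 0.3003, 0.478 and 0.281 in KO. Each KO ratio was below each WT ratio, although KO replicate 2 and WT replicate 2 differed by little. As the pair of genes was picked with the levels known, this separation is no test of a difference. Per kilobase of the longest transcript, *Ccnd1* accounted for 26.0 ± 4.07% of D cyclin transcripts in WT and 17.3 ± 5.17% in KO (SD, n = 3 each). The share was 30.7, 24.0 and 23.3% in the WT libraries, and 14.7, 23.2 and 13.97% in the KO libraries. *Ccnd3* held the largest share in both genotypes, 48.7 ± 2.90% in WT and 53.7 ± 4.95% in KO, and *Ccnd2* the remainder, 25.3 ± 2.66% and 29.0 ± 0.34%. With the mean length of the annotated transcripts in place of the longest, the *Ccnd1* share was 13.3% in WT and 8.35% in KO.

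The E cyclins, which activate Cdk2 at the start of S phase, differed from each other in how they varied. For *Ccne1*, WT had 76.4, 112 and 75.5 CPM, and KO had 127, 88.8 and 128 CPM. KO replicates 1 and 3 were above every WT library, and replicate 2 was the odd library in each genotype, high in WT and low in KO. The means were 88.1 ± 21.03 and 114.5 ± 22.3 CPM (± SD, 3 libraries each). The fold of 1.30 had an interval from 0.938 to 1.80 (edgeR, adjusted p = 0.596). DESeq2 gave an adjusted p of 0.450 for *Ccne1*, and 0.0419 without WT replicate 2. *Ccne2* varied little, with 27.4, 27.3 and 30.01 CPM in WT against 27.4, 24.2 and 29.2 CPM in KO. Its fold of 0.954 had an interval from 0.772 to 1.18 (edgeR, adjusted p = 0.932). Per kilobase, *Ccne1* held 82.0 ± 3.65% of the E cyclin transcripts in WT and 86.3 ± 1.48% in KO, and the libraries of the genotypes overlapped.

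*Cdk4* and *Cdk6* encode the kinases that D cyclins activate, and their levels were far apart. *Cdk4* had 1405, 1286 and 1303 CPM in WT against 1309.5, 1276 and 1243 CPM in KO, with 22389 to 35135 counts in a library. Its libraries varied least of the 10 genes, with a coefficient of variation of 4.82% in WT and 2.60% in KO. The fold of 0.959 had an interval from 0.851 to 1.080 (edgeR, adjusted p = 0.871). That interval leaves out a difference as large as the one of *Ccny* in either direction. *Cdk6* had 6.41, 9.72 and 11.7 CPM in WT against 9.32, 5.93 and 9.36 CPM in KO, from 104 to 250 counts in a library. Its fold of 0.885 had a wide interval, from 0.554 to 1.42 (edgeR, adjusted p = 0.919), and its direction turned when WT replicate 3 or KO replicate 2 was left out. *Cdk6*, which had the most miR-302 sites of the 10, was therefore measured too coarsely to show a difference inside that interval. *Cdk4* made up 99.9% of the *Cdk4* and *Cdk6* transcripts per kilobase in both genotypes.

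*Rb1*, which encodes the protein that the G1 kinases act on, was the least abundant of the 10 genes. It had 16, 23 and 33 counts in the WT libraries and 50, 46 and 22 counts in the KO libraries, or 0.754, 1.28 and 1.602 CPM against 1.86, 2.62 and 1.20 CPM. KO replicate 3 was within the WT range, and the highest library of each genotype was over its lowest by a factor of 2.12 in WT and 2.19 in KO. The fold of 1.56 had an interval from 0.768 to 3.16 (edgeR, adjusted p = 0.718), wide enough to hold a difference in either direction. *Cdkn1b*, the inhibitor p27, had 5.75, 4.36 and 6.94 CPM in WT against 4.70, 5.01 and 3.92 CPM in KO, from 72 to 143 counts in a library. Its fold of 0.799 had an interval from 0.534 to 1.20 (edgeR, adjusted p = 0.764). Its WT and KO libraries overlapped.

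*Ccny*, which acts at the cell membrane with Cdk14 and Cdk16, had 11.1, 15.5 and 11.5 CPM in WT against 30.2, 25.7 and 25.8 CPM in KO. The lowest KO library was well above the highest WT library. The underlying counts were 235, 278 and 236 in WT and 809, 451 and 475 in KO. The means were 12.7 ± 2.47 and 27.2 ± 2.53 CPM (± SD, 3 libraries each). This was a difference of 1.10 ± 0.18 on the log2 scale (SE, edgeR), and the interval of the fold ran from 1.61 to 2.87. The unadjusted edgeR p was 0.000383 and the adjusted p 0.132, and the exact permutation p was 0.1, the smallest that 3 libraries against 3 allow. DESeq2 gave 1.13 with an adjusted p of 4.79e-06. By edgeR, *Ccny* passed the threshold without WT replicate 2 (log2 fold change 1.29, adjusted p = 0.0337) and with no filter on low counts (adjusted p = 0.0271). The study placed *Ccny* among the Wnt pathway genes that it selected from these same libraries as higher in KO, so the direction is not independent evidence.

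**Figure D2:**
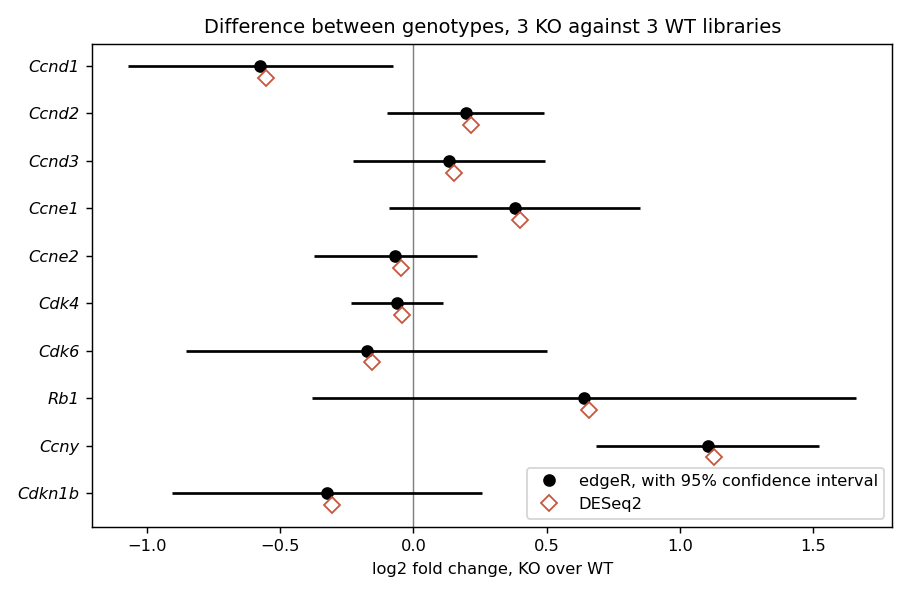
Log2 fold change of each gene, KO over WT, from 3 libraries per genotype; filled circles are edgeR values with their 95% confidence interval and open diamonds are DESeq2 values. The edgeR interval leaves out 0 for *Ccnd1* (-0.57) and *Ccny* (1.10), and neither passed the adjusted threshold in edgeR.

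Leaving out each library in turn showed which values hung on a single library. *Ccny* stayed between 1.01 and 1.29 on the log2 scale in edgeR and between 1.03 and 1.30 in DESeq2, where the adjusted p was at most 0.0022. *Ccnd1* stayed below 0, between -0.83 and -0.38 in edgeR. *Ccne1* stayed above 0, between 0.29 and 0.61, and *Rb1* between 0.36 and 0.92. *Ccne2* and *Cdk6* crossed 0, the former between -0.10 and 0.02 and the latter between -0.38 and 0.06. *Ccnd2* ran from 0.07 (without WT replicate 1) to 0.34, and *Ccnd3* from 0.03 (without WT replicate 1) to 0.35. *Cdk4* ran from -0.07 to -0.01 and *Cdkn1b* from -0.46 to -0.12.

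**Figure D3:**
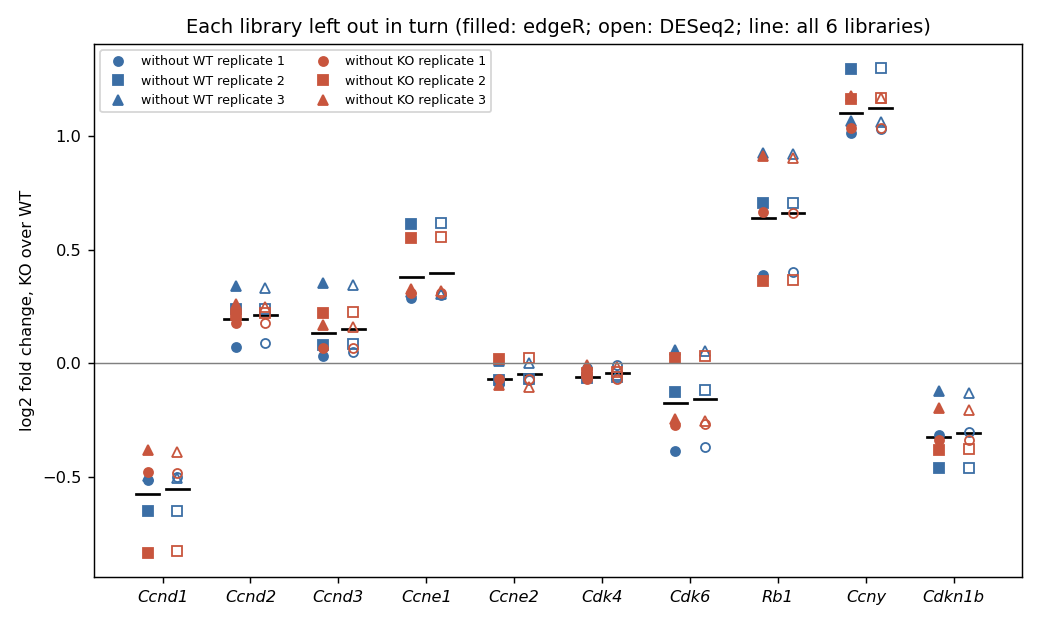
Log2 fold change, KO over WT, of each gene with 1 library left out in turn, from edgeR (filled symbols) and DESeq2 (open symbols); the symbol and color give the library left out and the black line the value from all 6 libraries. *Ccny* lies above 1 in each case, *Ccnd1* is lowest without KO replicate 2 (-0.83), and *Ccne2* and *Cdk6* fall on both sides of 0.

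The libraries also differed in a property of the transcripts. The share of G and C in the most GC-rich 200 bases of the transcript was computed for each gene, because libraries of this series differed in it. It was 75% or more for *Rb1* (85%), *Ccny* (78.5%) and *Ccne1* (77.5%), the 3 genes of the 10 with the largest fold changes above 0, and 64.5 to 74.5% for the other 7. Over all genes, the 3635 with such a stretch sat lower than the other 10210 in each WT library (-0.15, -0.02 and -0.12 on the log2 scale) and higher in each KO library (0.12, 0.09 and 0.07). With offsets for this trend in each library, the edgeR log2 fold change became 0.86 for *Ccny*, 0.23 for *Ccne1*, 0.18 for *Rb1* and -0.50 for *Ccnd1*. Because the trend ran with genotype, such offsets also take out any genotype difference that follows GC content. A bias of the libraries and a difference between the genotypes cannot be told apart here. *Ccny* kept its DESeq2 call with the offsets (0.88, adjusted p = 0.000173). With the same offsets, DESeq2 called 557 genes, 392 higher and 165 lower.

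The order of the 10 genes can be read only per length, because longer transcripts collect more reads. Per kilobase of the longest annotated transcript, *Cdk4* led with 648 ± 31.3 CPM in WT against 622 ± 16.2 CPM in KO (SD, n = 3 each). *Ccnd3* came next, at 80.9 ± 17.02 and 88.7 ± 8.92 CPM per kilobase. *Ccne1*, *Ccnd1* and *Ccnd2* followed in WT, at 44.1 ± 10.52, 42.6 ± 5.14 and 41.8 ± 6.86 CPM per kilobase, and their libraries overlapped. In KO, *Ccne1* (57.3 ± 11.2) and *Ccnd2* (47.9 ± 1.97) overlapped, and *Ccnd1* (28.6 ± 8.88) was below both in every library. Below them came *Ccne2* (9.39 in WT and 8.96 in KO), *Ccny* (2.20 and 4.73), *Cdkn1b* (1.25 and 0.998), *Cdk6* (0.805 and 0.712) and *Rb1* (0.261 and 0.407 CPM per kilobase). Of these, *Cdkn1b* and *Cdk6* overlapped in WT, and *Cdk6* and *Rb1* in KO. *Cdk6* depends most on the length used, since its longest transcript has 11525 bases and the mean of its annotated transcripts is 3099 bases. With mean lengths, *Cdk6* came before *Cdkn1b* and *Ccnd2* before *Ccne1* and *Ccnd1*.

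**Figure D4:**
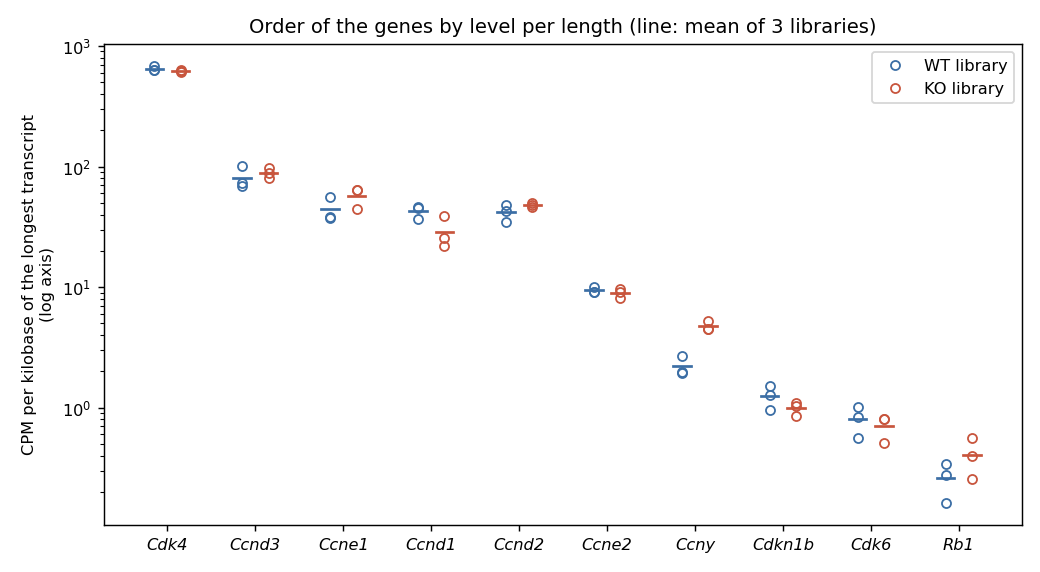
Level per kilobase of the longest annotated transcript in each library (open circles, CPM per kilobase, log axis) with the mean of 3 libraries (lines) for WT (blue) and KO (red), with genes in WT order. Levels run from 648 CPM per kilobase for *Cdk4* to 0.261 for *Rb1* in WT, and *Ccne1*, *Ccnd1* and *Ccnd2* overlap in WT.

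The fold changes were also read against the sites. The 5 genes with a miR-302 match ranged from -0.57 (*Ccnd1*) to 1.10 (*Ccny*) on the log2 scale, with a median of -0.06. The 5 genes without one ranged from -0.32 (*Cdkn1b*) to 0.64 (*Rb1*), with a median of 0.13. Of the genes with a match, *Ccny* and *Ccnd2* had values above 0, and *Ccnd1*, *Cdk4* and *Cdk6* below it. *Ccnd1* and *Ccnd2*, each with 1 match of the same type, had values on opposite sides of 0.

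Several of the genes share exonic sequence with a neighbor on the opposite strand. The study's libraries were made from SMART-seq cDNA with the Nextera XT kit, and no step that keeps the strand is described. Its methods do not say whether counting used strand either. The neighbors with the highest levels were *Ints8* beside *Ccne2* (up to 163 CPM), *Rcbtb2* and *Lpar6* beside *Rb1* (up to 147 and 52.6 CPM), *Tspan31* beside *Cdk4* (128 CPM), *Bysl* beside *Ccnd3* (103 CPM) and *LTO1* beside *Ccnd1* (31.5 CPM). Within the shared stretches, reads from *Rb1* and *Ccne2* therefore cannot be told apart with certainty from those of far more abundant neighbors. *Rb1* itself had 0.754 to 2.62 CPM. The longest exon overlap was 383 bases for *Rb1* and 474 bases for *Ccne2*, whose longest transcripts have 4656 and 3006 bases. It was longer for *Cdk4* (641 bases) and *Ccnd1* (818 bases), whose neighbors were less abundant than these genes. No expressed neighbor of this kind was found for *Ccny*, *Ccne1* or *Cdkn1b*.

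Other genes of the G1/S step were listed by role, 61 in all, of which 59 were tested. None passed edgeR's adjusted threshold, 8 were higher and 1 lower at an unadjusted p under 0.05 (6.42% and 3.97% of all genes tested), and DESeq2 called 5 higher and 0 lower (4.22% and 0.648%). Their median log2 fold change was 0.04. Of the 10 E2F and DP factors, of which Rb or its relatives restrain some, 7 had genotypes that were separate, 6 with KO above and 1 with KO below, beside 11 of all 59 genes and 16.4% of all tested genes. This list had a median of 0.19.

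*E2f1*, an activating E2F, had 3.16, 8.21 and 4.27 CPM in WT against 24.6, 25.1 and 8.60 CPM in KO. The lowest KO library was only just above the highest WT library. The log2 fold change was 1.90 ± 0.50 (SE), with an adjusted p of 0.196 by edgeR and 0.000763 by DESeq2, and without KO replicate 1 the DESeq2 value was 0.0761. *E2f5*, which works with the Rb relatives, had means of 26.8 ± 7.30 CPM in WT against 52.1 ± 9.83 CPM in KO (edgeR log2 fold change 0.96, adjusted p = 0.160). DESeq2 gave *E2f5* an adjusted p of 0.000903, and 0.0612 without KO replicate 1. Smaller differences were measured for *Tfdp2* (0.27), *E2f6* (0.21), *Tfdp1* (0.18) and *E2f4* (0.16), each separate between genotypes. Their unadjusted edgeR p-values were 0.0325, 0.0381, 0.102 and 0.0518. With the GC offsets, *E2f6* had a value of -0.04, *Tfdp2* of 0.03 and *Tfdp1* of 0.29 (edgeR, adjusted p = 0.919, 0.965 and 0.343). *E2f3*, another activating E2F, was the one lower in KO, with 27.7 ± 3.13 CPM against 20.7 ± 3.70 CPM and a log2 fold change of -0.42 (edgeR, adjusted p = 0.468).

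The genes listed here as E2F targets differed little between the genotypes. *Ccne1* (fold 1.30) and *Ccne2* (0.954), which E2F factors also switch on, were described above and are not in this list. Of 19 E2F target genes tested, 0 had an unadjusted edgeR p under 0.05, 0 were called by edgeR at the adjusted threshold and 0 by DESeq2, and their log2 fold changes ran from -0.14 to 0.11 with a median of 0.01. *Mcm6*, a subunit of the replicative helicase and the one with the highest mean CPM, had 708 ± 38.9 CPM in WT against 714 ± 93.7 CPM in KO. The Rb relatives *Rbl1* and *Rbl2* had log2 fold changes of 0.15 and 0.0016, and neither passed a threshold.

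The inhibitors, the Cdk2 group and the turnover genes are short lists, in which few calls or none can be read only beside the shares over all genes. Those shares were 10.4% at an unadjusted edgeR p under 0.05 and 4.87% called by DESeq2. Of the CDK inhibitors, 5 of 6 were tested, 0 had an unadjusted edgeR p under 0.05 and DESeq2 called 0. *Cdkn1a* (p21), with the highest mean CPM, was at 79.3 ± 19.1 CPM in WT against 89.1 ± 31.8 CPM in KO. The log2 fold changes of the 5 tested inhibitors ran from -0.77 to 1.06, with a median of 0.17. *Cdkn2a*, which encodes p16, had 0 counts in every library. In the group of Cdk2 with its partners and activators, *Cdc25a*, a phosphatase that activates Cdk2, had 63.0 ± 12.4 CPM in WT against 93.5 ± 14.3 CPM in KO (log2 fold change 0.57, edgeR adjusted p = 0.251, DESeq2 adjusted p = 0.0349), and its libraries overlapped. The DESeq2 call of *Cdc25a* was lost with the GC offsets (0.28, adjusted p = 0.537) and without WT replicate 1, WT replicate 3, KO replicate 1 or KO replicate 3 (adjusted p of 0.260, 0.333, 0.356 and 0.168). *Ccna2*, cyclin A2, had the highest mean CPM of that group, at 264 ± 12.9 and 249 ± 18.1 CPM. For the 9 genes that degrade cyclins and Cdkn1b, 0 had an unadjusted edgeR p under 0.05 and DESeq2 called 0, and *Skp1*, part of the SCF ubiquitin ligase, was at 468 ± 18.9 and 448 ± 5.38 CPM.

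The relatives and partners of *Ccny* had a median log2 fold change of 0.66, with 7 of 8 tested and 6 of them above 0, beside 45.6% of all genes tested. The genotypes were separate for 3 of the 7, beside 16.4% of all genes tested. *Cdk16*, a kinase that Ccny activates, had 97.0, 164 and 87.4 CPM in WT against 242, 211 and 231 CPM in KO. The genotypes did not overlap, and the log2 fold change was 0.97 ± 0.23 (SE), with an adjusted p of 0.161 by edgeR, 0.0291 by edgeR without WT replicate 2, and 0.0005 by DESeq2. *Lrp6* (0.73, DESeq2 adjusted p = 0.00385) and *Cdk17* (0.67, DESeq2 adjusted p = 0.0888) were also separate between genotypes. Without WT replicate 2, DESeq2 called *Cdk17* as well (1.01, adjusted p = 1.62e-05). The DESeq2 call of *Lrp6* was lost without WT replicate 1, WT replicate 3 or KO replicate 1 (adjusted p of 0.0781, 0.0898 and 0.0960). *Lrp6* was selected by the study from these libraries together with *Ccny*. *Cdk14*, the other kinase known to bind Ccny, had 19.5 ± 1.99 CPM in WT against 19.2 ± 6.36 CPM in KO, and *Ccnyl1*, the closest relative of *Ccny*, was at 5.22 ± 1.26 and 5.63 ± 0.92 CPM. *Cdk16*, *Cdk17* and *Lrp6* each had a stretch of 80 to 81% G and C, as did *E2f1* (82.5%) and *E2f5* (80.5%), whereas that of *Cdk14* had 58.5%. *E2f3*, with the lower level in KO, also had a stretch of 82.5%, and *Ccnyl1*, with a log2 fold change of 0.11, had one of 79.5%. With the GC offsets, the edgeR log2 fold changes of *Cdk16*, *Lrp6*, *E2f1* and *E2f5* became 0.60, 0.38, 1.48 and 0.59, and DESeq2 kept its calls except for that of *Lrp6* (adjusted p = 0.240). *Cdk17* became 0.29 by edgeR and 0.34 by DESeq2 (adjusted p = 0.552). With the same offsets, *E2f3* was at -0.81 and was called by DESeq2 (adjusted p = 0.0226).

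**Figure D5:**
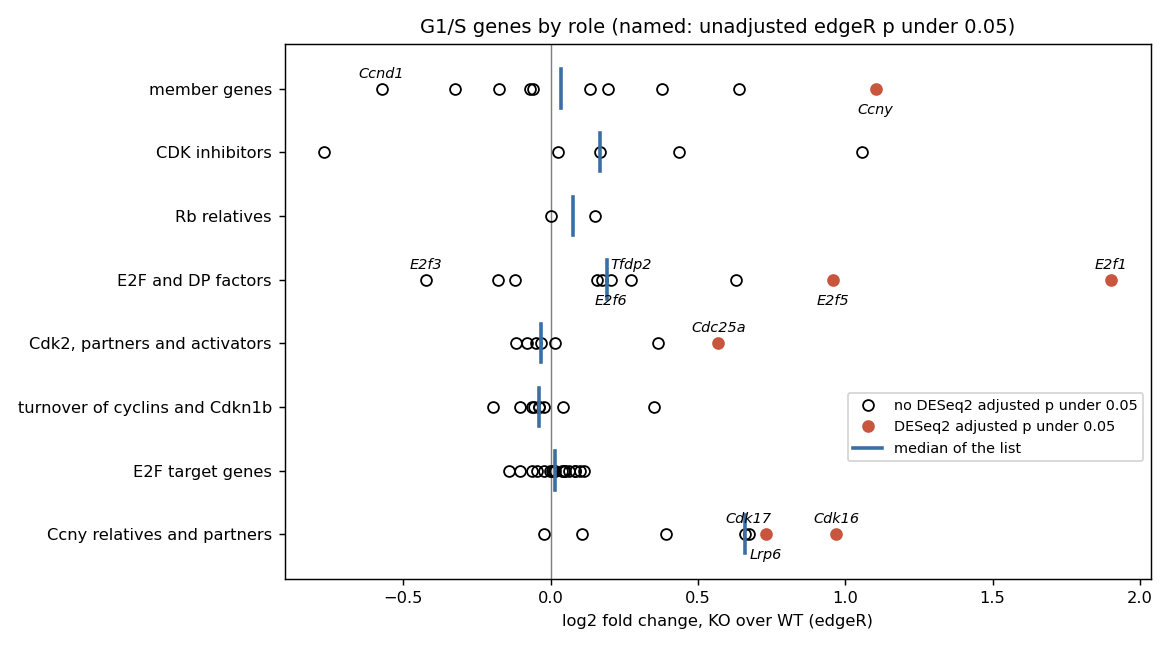
Log2 fold change (edgeR, KO over WT) of the 10 genes described here and of the tested genes of 7 other G1/S lists, 1 circle per gene; red circles have a DESeq2 adjusted p under 0.05, blue lines mark list medians, and genes with an unadjusted edgeR p under 0.05 are named. The listed E2F target genes lie between -0.14 and 0.11, while the E2F factors run from -0.42 to 1.90.

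For each of the 10 genes, the tested gene whose pattern over the 6 libraries was most like it was found among 11390 genes with a mean of at least 5 CPM, by the root mean square difference of centered log2 CPM. *Cdk4* was matched by *Selenof* (0.0129) and *Ccne2* by *Orc3* (0.0172), an origin recognition subunit, and the level of both matched genes differed little between genotypes (log2 fold change -0.06 each). *Ccny* was matched by *Nsmaf* (0.0611), which averaged 83.6 CPM in WT against 168 CPM in KO. *Ccnd1* was matched by *Kdm6b* (0.092), a histone demethylase gene with a log2 fold change of -0.54. The others were matched by *Cthrc1* (*Ccnd2*, 0.0501), *Oat* (*Ccnd3*, 0.0603), *Ndrg2* (*Ccne1*, 0.0801), *Rragd* (*Cdk6*, 0.0658), *Acsf2* (*Cdkn1b*, 0.0506) and *Pnmal1* (*Rb1*, 0.149), the last being the loosest match.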

How the data were processed

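The authors removed low-quality sequences, mapped the reads to GRCm39 using STAR defaults, and used GenomicAlignments to count the reads on each gene. The deposited values are these raw counts for 55414 genes, as whole numbers. Versions, gene annotation and strand setting are not given in the sources used here. Libraries summed to between 17352498 and 26634523 counts, which limits the precision of low genes. From these counts, genes were filtered with filterByExpr and compared by the quasi-likelihood test of edgeR 4.0.16 (R 4.3.3) with TMM factors, with genotype as the only term, and p-values were Benjamini-Hochberg adjusted over 16353 genes. The spread had 4 residual and 3.26 prior degrees of freedom. Standard errors and 95% intervals were derived from each F statistic. DESeq2 1.42.0 was run with its defaults on the 30187 genes with at least 1 count. Both fits were tested on simulated counts. CPM are scaled by TMM factors.

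Transcript lengths, 3′UTRs and GC content were read from GENCODE M21, which is on GRCm38, and gene coordinates are left out for that reason. Offsets for the GC trend were loess fits per library (span 0.3). Symbols were found for 94.0% of identifiers. Samples were grouped by the genotype and replicate in their labels. The 10 genes and all lists were chosen with earlier results of these data known. Outside the 10, named genes are those of the lists with an unadjusted edgeR p under 0.05, the gene with the highest mean CPM in each list, and the gene most alike to each of the 10. *Ccnyl1*, *Cdk14*, *E2f4*, *Rbl2*, *Cdkn2a*, the single marker genes and the neighboring genes were named in addition after their values were seen. The ratio of *Ccnd1* to *Ccnd2* and the DESeq2 fits with GC offsets, a replicate block or a library left out were added after seeing the data. Small RNA libraries were not analysed here.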

Additional observations from a re-analysis of the deposited data

How the results depend on the processing

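Among the alternatives, edgeR with the newer estimate of the spread, RLE factors, at least 50 counts in 3 libraries (which left *Rb1* out), the GC offsets, or the 2 libraries richest in hemoglobin or the 2 sharing a library code left out, called 0 genes, as did the fit to all 6 libraries. DESeq2 called 699 genes, 1 of the 10 and 5 of the 61 G1/S genes. With no filter on low counts, edgeR called 264 genes, 1 of the 10 (*Ccny*) and 1 of the 61 (*Cdk16*). Leaving out each library in turn gave 0 to 217 genes by edgeR, 217 without WT replicate 2, with 0 to 1 of the 10 and 0 to 1 of the 61 called. DESeq2 gave 296 to 862 genes, 1 to 2 of the 10 and 1 to 7 of the 61, the lowest for genes and for the 61 without KO replicate 1. *Ccny* was called in each, joined by *Ccne1* without WT replicate 2 and by *Ccnd1*, lower, without KO replicate 2. Keeping 8mers alone left 2 of the 8 sites.

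Of 229 values of the 10 genes under alternatives, 13 turned direction, each for a gene with no call. With the GC offsets, *Ccne2* came to 0.0051 by edgeR and 0.020 by DESeq2, *Cdk4* to 0.0027 and 0.0062, *E2f6* to -0.042 and -0.022, and *Skp1* to 0.0045 and 0.019. Without the libraries that share a code, *Ccnd3* came to -0.0032 and *Mcm6* to -0.047. With a library left out, *Ccne2* ran from -0.096 to 0.018 by edgeR and -0.10 to 0.024 by DESeq2, *Cdk6* from -0.38 to 0.060 and -0.37 to 0.053, *Cdkn1a* from -0.11 to 0.42 and -0.11 to 0.41, and *Mcm6* from -0.029 to 0.13 and -0.038 to 0.14. The cause was not tested.

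Correlations of same-numbered deviations were -0.21, 0.25 and 0.08, and the highest of any pairing was 0.34, for WT replicate 3 and KO replicate 1. Deviations from a mean of 3 libraries depend on each other, so these values cannot settle whether the replicate numbers pair the libraries. With a replicate block, edgeR called 0 genes, 0 of the 10 and 0 of the 61, and DESeq2 called 669 genes, 1 of the 10 and 4 of the 61, losing only *Cdc25a* among the named genes (adjusted p = 0.0704). Counts were lowest for *Rb1* (16 to 50 in a library), *Cdkn1b* (72 to 143) and *Cdk6* (104 to 250).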
